A study of Homo sapiens with 3 samples.

Results

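The mRNA of a hepatocellular carcinoma (HCC) subclone that metastasised to both lung and celiac lymph node, subclone 2, was compared with that of the parental line it came from. The comparison used 2 of the 3 libraries of the study, 1 for each line, and 15697 of the 16149 genes listed in any library were listed in at least 1 of these 2. All ratios are described over the 11370 genes whose mean over the 3 libraries was at least 1 RPKM (reads scaled to the length of the gene and the size of the library), called the background genes here. The study derived lines of different organ tropism from HCCLM3, a human HCC cell line. The labels give the parent as HCCLM3 with low metastasis ability, subclone 1 as of higher metastasis ability with lung tropism, and subclone 2 as having lung and celiac lymph node tropism, while the methods of the study name the parent HCCLM3-R, a red fluorescent derivative of high metastatic potential. All 3 lines were grown in DMEM, their RNA was taken with Trizol and the libraries were made with a TruSeq kit. A subclone in this study is a line grown from a single cell of a mouse metastasis, so that subclone 2 stands for 1 clone, and the labels do not say which of the established clones was sequenced.

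The depth could be read from the RPKM themselves, because the values of a gene are whole numbers of reads apart from a factor for its length and for the library. The library totals came to 4488825 reads for the parent and 4725150 for subclone 2, with 4609696 for subclone 1, and 97.8% of the background genes could be given whole reads. The 95% intervals given below are exact Poisson intervals for levels and exact Clopper-Pearson intervals for folds, and they cover counting error only. With 1 library for each line no difference between the lines was tested, and a fold compares 2 libraries. Folds are ratios of RPKM, log2 ratios are taken as log2 of RPKM plus 0.1, and a gene without reads in a library is given a bound at 3 reads.

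HCC arises from hepatocytes, which secrete most plasma proteins, and loses these products to a varying degree as the tumor dedifferentiates. To settle in another organ, tumor cells have to leave the primary tumor, survive in blood or lymph, adhere to vessel walls or matrix and grow among new neighbors, and adhesion molecules, proteases, chemokines and growth factors serve these steps. Genes of inflammation share the transcription factor NF-kB, which binds short elements near their start sites.

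Among the 11370 background genes, subclone 2 exceeded the parent by 2-fold or more in 606 (5.33%) and lay below it to the same degree in 246 (2.16%), together 7.49%. The median log2 ratio was 0.04, with quartiles at -0.22 and 0.32, and 9096 genes (80.0%) lay within 1.5-fold. Differences of at least 8-fold were found for 54 genes that were higher and 30 that were lower. Counts of list members past 2-fold, given below, are to be read beside the shares of 5.33% and 2.16%. A gene below 1 RPKM in the parent reached the background only through the subclones, as several higher list members did. Protein-coding genes made up 10914 of the background, of which 559 were higher and 214 lower. Small RNAs, which an mRNA library samples poorly, were past 2-fold in 35 of 52 cases, 33 of these 35 with at most 10 reads in either library, and 6 of the 15 highest and 8 of the 15 lowest ratios belonged to them. They are not described further.

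**Figure D1:**
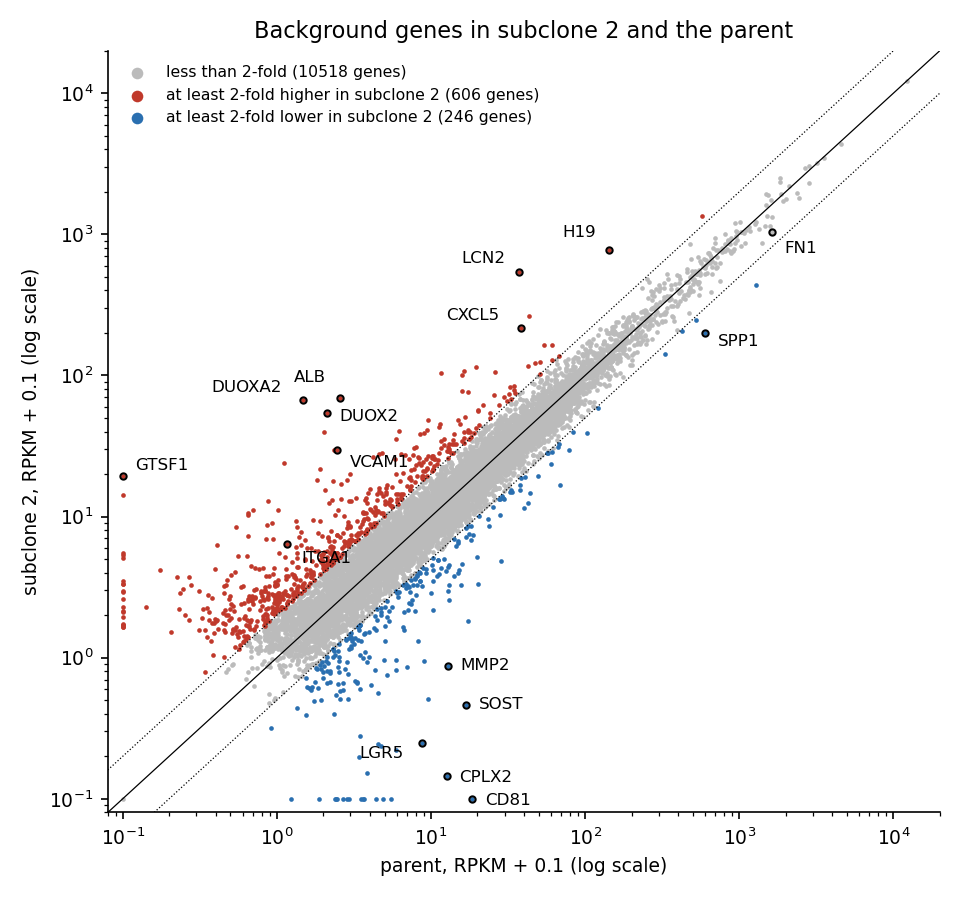
RPKM + 0.1 of the background genes in the parent (horizontal axis) and in subclone 2 (vertical axis), both on log scales, with the diagonal as a solid line and 2-fold differences as dotted lines. The 606 higher genes (red) and the 246 lower genes (blue) stand outside a band that holds the other genes at all levels, and GTSF1 and CD81 lie on the axes because 1 library had no reads of them.

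The label of the lines was checked against hepatocyte markers. ALB (albumin), APOB (apolipoprotein B), FGB (fibrinogen beta chain) and AFP (alpha-fetoprotein) were above 1 RPKM on average, while TTR, APOA1 and SERPINA1, which hepatocytes transcribe abundantly, had 0 to 2 reads in the parent and subclone 2. The 7 markers summed to 7.14 RPKM in the parent, 70.4 RPKM in subclone 1 and 83.8 RPKM in subclone 2. Among markers of other cells, fibroblast markers summed to 15.7 RPKM in the parent and 24.3 RPKM in subclone 2, with COL1A1 at 9 and 1 reads, COL1A2 at 1 and 0 reads, and PDGFRA and PDGFRB not listed. Most of the fibroblast sum was LUM (lumican), at 10.1 RPKM and 2.08-fold higher in subclone 2, and DCN (decorin) was 3.56-fold higher. Endothelial markers summed to 10.7 and 10.8 RPKM with CDH5 at 0 reads in both, and leukocyte markers to 85.0 and 113 RPKM with PTPRC at 1 and 0 reads, most of the latter sum being CD68. In such bulk RNA, fewer cells of a type and less RNA per cell cannot be told apart.

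Adhesion molecules of the immunoglobulin family bind cells to vessel walls and to each other. VCAM1, the endothelial ligand of the integrin VLA-4 on leukocytes, lies on chr1:100719742-100739045 of the plus strand in the GENCODE annotation of GRCh38 (the files use hg19, and no coordinate was converted). It had 2.35 RPKM in the parent (1.63 to 3.29) and 29.4 RPKM in subclone 2 (26.7 to 32.2), with 15.6 RPKM in subclone 1. This is a 12.5-fold higher level (8.81 to 18.3) from 34 and 447 reads, so that the intervals of the 2 libraries lie far apart. The 250 bases before its start site are shown here (RefSeq, GRCh38.p14, chr1:100719492-100719741, plus strand). They hold a match to the NF-kB consensus 62 bases and the letters TATAAA 29 bases upstream of the start, both in capitals. Elements that depart from this consensus were not searched for and are not marked.
VCAM1 upstream: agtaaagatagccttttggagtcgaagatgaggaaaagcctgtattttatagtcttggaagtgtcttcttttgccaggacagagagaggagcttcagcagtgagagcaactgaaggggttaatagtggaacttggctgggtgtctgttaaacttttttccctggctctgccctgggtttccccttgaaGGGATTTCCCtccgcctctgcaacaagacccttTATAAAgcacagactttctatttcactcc

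Of 31 immunoglobulin-like adhesion genes, 23 were listed and 17 were in the background, and 2 of these were at least 2-fold higher and 2 lower, with a median log2 ratio of 0.28. Besides VCAM1, F11R (junctional adhesion molecule A of tight junctions) was higher, from 11.5 to 30.4 RPKM, a 2.65-fold difference (2.29 to 3.07). MCAM, an adhesion molecule of endothelium and melanoma, had 3.21 RPKM in the parent and 0.572 RPKM in subclone 2, and was 5.61-fold lower (2.72 to 13.01). CEACAM6, a carcinoembryonic antigen family member, had 328 and 142 RPKM, 2.31-fold lower (2.10 to 2.55), and subclone 1 was lower still at 41.3 RPKM. The members past 2-fold thus differed in direction, and VCAM1 had the largest difference of the 4.

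Integrins join the cytoskeleton to the matrix. ITGA1, the alpha 1 subunit that pairs with beta 1 to bind collagen and laminin (chr5:52787896-52959210, plus strand), had 1.07 RPKM in the parent (0.675 to 1.60), 3.29 RPKM in subclone 1 and 6.29 RPKM in subclone 2 (5.30 to 7.41). The level in subclone 2 was 5.91-fold that of the parent (3.79 to 9.62). Of 26 integrin genes 12 were in the background, with a median of 0.11. ITGA1 alone of them was at least 2-fold higher (8.3%, against 5.33% of all background genes). ITGB3, the beta 3 subunit of the vitronectin receptor, alone was at least 2-fold lower, from 0.819 to 0.216 RPKM on 18 and 5 reads, with 2.57 RPKM in subclone 1.

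DUOX2, the dual oxidase that makes hydrogen peroxide at the surface of thyroid and mucosal epithelium, and DUOXA2, the maturation factor that carries it to the membrane, were among the 15 highest ratios. DUOXA2 (chr15:45114321-45118421, plus strand) had 1.38 RPKM in the parent (0.632 to 2.62), 34.2 RPKM in subclone 1 and 66.9 RPKM in subclone 2 (61.0 to 73.4). DUOX2 (chr15:45092650-45114344, minus strand) had 2.01 RPKM (1.53 to 2.60), 28.2 RPKM and 54.5 RPKM (51.9 to 57.1). The order of the 3 lines was the same for both genes, with subclone 2 highest. On reads of 9 and 459 for DUOXA2 and of 58 and 1654 for DUOX2, the folds over the parent were 48.4 (25.3 to 107) and 27.1 (20.8 to 35.8). The genes lie head to head, and their RefSeq start sites are 154 bases apart. The 153 bases between these sites (GRCh38.p14, chr15:45114173-45114325, written along DUOXA2) are shown because both genes start from their ends in RefSeq. By the GENCODE coordinates above, DUOX2 starts beyond this stretch, so that the 2 annotations differ in its start. The capitals mark TATAAA, 32 bases before the start of DUOXA2.
DUOX2 to DUOXA2: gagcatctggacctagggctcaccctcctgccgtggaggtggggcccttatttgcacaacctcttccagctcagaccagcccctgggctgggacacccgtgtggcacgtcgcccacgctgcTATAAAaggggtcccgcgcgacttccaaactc

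The letters TATAAA occur on either strand in 11.95% of the 27305 promoters of the same table, taken from 250 bases before to 50 bases after the start. Of the other NADPH oxidase genes only CYBA, the p22phox subunit of the phagocyte-type oxidases, was in the background, at 65.7 RPKM in the parent and 120 RPKM in subclone 2. Of the 15 oxidase genes 12 were listed, and the 9 below the background had at most 12 reads in either library. DUOX1 had 3 and 8 reads and NOX1 had 12 and 9 reads, so that no difference was detectable for them at this depth. The difference in this family was thus measured in the DUOX2 and DUOXA2 pair and, at smaller size, in CYBA.

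GTSF1, a zinc-finger protein of the piRNA pathway that silences transposons in the germ line, had the highest ratio of all background genes. It lies on chr12:54455950-54473602 of the minus strand. It was not listed in the parent, had 36.9 RPKM in subclone 1 (140 reads) and 19.3 RPKM in subclone 2 (15.2 to 24.2, 75 reads). Against the 0.813 RPKM that 3 reads would give in the parent, its level in subclone 2 was at least 23.7-fold higher. Other germline genes had the same direction. PRAME, a melanoma antigen otherwise restricted mostly to testis, had no reads in the parent. It had 6.49 RPKM in subclone 1 (83 reads) and 2.82 RPKM in subclone 2 (37 reads, at least 11.7-fold above the parent). MAGEC1, a cancer-testis antigen of the X chromosome, had 2.21 RPKM in the parent, 16.2 RPKM in subclone 1 and 17.7 RPKM in subclone 2, with an interval of the fold over the parent from 5.82 to 11.2.

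The list of 50 germline and cancer-testis genes had 23 members listed and 9 in the background. Of these, 5 were at least 2-fold higher (55.6%, against 5.33% of all background genes) and none lower. The median log2 ratio of the list was 1.25 for subclone 1 and 1.05 for subclone 2. The latter did not change when GTSF1 and PRAME were set at their bounds. With no filter on RPKM the median was 0.33, and GTSF1 and PRAME had passed the filter only through the subclones. The remaining members past 2-fold were MAGEC2, from 3.77 to 7.90 RPKM, and MAGEA11, from 0.471 to 1.45 RPKM on 4 and 13 reads with an interval of its fold from 0.954 to 12.998. Members of the MAGE family resemble each other in sequence, and reads shared between them may have been counted for either. The difference was not general to the class: SSX1 and MAGEA3, abundant members at 174 and 14.5 RPKM in the parent, had 159 and 13.5 RPKM in subclone 2. Of the piRNA machinery, DDX4 had 0 and 7 reads, PIWIL2 had 4 and 5 reads, and TDRKH had 11.4 and 16.2 RPKM.

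CPLX2, complexin 2, clamps SNARE complexes before regulated secretion in neurons and some secretory cells. The gene lies on chr5:175796310-175884020 of the plus strand. Its level was 12.5 RPKM in the parent (11.1 to 14.1 on 266 reads), 1.47 RPKM in subclone 1 (32 reads) and 0.0448 RPKM in subclone 2, where a single read was left. The fold of 280 in favor of the parent had a counting interval from 49.8 to 11101. No other member of the exocytosis list was past 2-fold. Of its 35 genes 21 were in the background, 17 of these with a ratio above 0, and the median was 0.24. CPLX1, the other complexin in the background, had 1.42 RPKM in the parent and 2.40 RPKM in subclone 2, with a fold of 1.70 whose interval from 0.849 to 3.53 includes no difference.

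**Figure D2:**
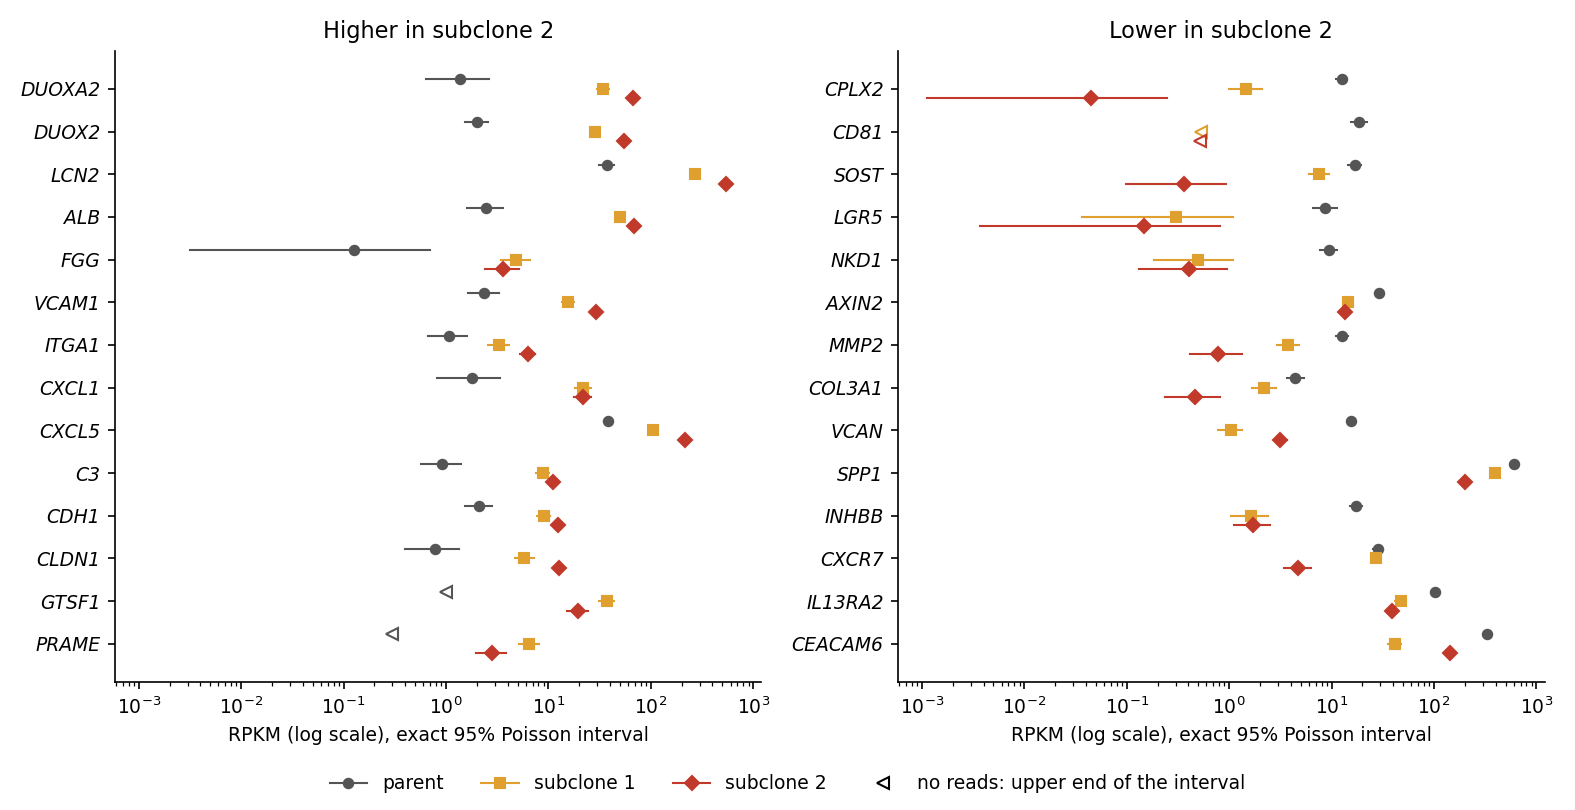
Levels in RPKM (log scale) of 14 genes that were higher (left) and 14 that were lower (right) in subclone 2 than in the parent, for the parent (grey circles), subclone 1 (orange squares) and subclone 2 (red diamonds), with bars for the exact 95% Poisson interval and open triangles for its upper end where there were no reads. For DUOXA2, DUOX2, LCN2, VCAM1, ITGA1 and CXCL5 subclone 1 lies between the parent and subclone 2, while for CXCR7 subclone 1 stands beside the parent and only subclone 2 is lower.

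Chemokines direct the migration of leukocytes, and the CXC members with an ELR motif act on neutrophils and endothelium. Of 30 ligands, 15 were listed and 10 were in the background. Of these 10, 8 were at least 2-fold higher in subclone 2 (80.0%, against 5.33% of all background genes) and none was lower. The median log2 ratio was 1.90, or 1.45 with no filter on RPKM. CXCL5, the most abundant, had 38.4 RPKM in the parent, 105 RPKM in subclone 1 and 217 RPKM in subclone 2, a 5.65-fold difference (5.10 to 6.28) on 427 and 2541 reads. CXCL1, its close relative, had 1.79, 21.9 and 21.6 RPKM in the same order and was 12.03-fold higher (6.12 to 27.0). CXCL3 went from 1.34 to 6.17 RPKM, 4.61-fold (2.01 to 12.3). CXCL1, CXCL2 and CXCL3 are similar in sequence, so that their reads may be shared.

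The other ligands in the background also had ratios above 0. CX3CL1 (fractalkine, a membrane-bound chemokine) had 2 reads in the parent and 43 in subclone 2, 0.135 and 2.75 RPKM, a ratio of 20.4 with an interval from 5.32 to 174. CXCL16, likewise membrane-bound, had 9.31 and 40.9 RPKM and was 4.39-fold higher (3.52 to 5.52). CCL20, the ligand of CCR6 on dendritic and T cells, had 8.12 and 26.1 RPKM and was 3.22-fold higher (2.14 to 4.97). CCL26 (eotaxin 3) was 2.73-fold higher (2.26 to 3.30), from 60.6 to 165 RPKM. IL8 had 10.1 and 17.7 RPKM, a 1.75-fold difference (1.17 to 2.66) that missed the 2-fold line.

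Chemokine receptors were scarce. Only CXCR7, a scavenging receptor of CXCL12, was in the background, and it was lower: 28.5 RPKM in the parent, 27.2 RPKM in subclone 1 and 4.71 RPKM in subclone 2 (270, 265 and 47 reads), 6.05-fold below the parent (4.42 to 8.43). CXCR7 lies on chromosome 2, where the median of all genes was below 0 (given with the chromosomes). CCL20, which was higher, lies there too, and a link to the chromosome was not tested. CCR1 had 21 reads in the parent and 0 in subclone 2, and CCR6, the receptor of CCL20, had 4 and 15, both under the background.

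Subunits of NF-kB and the targets that feed back on it mostly had ratios between 0 and 2-fold. All 19 were listed and 18 were in the background, 17 with a ratio above 0 and 2 past 2-fold (11.1%, against 5.33% of all background genes), and the median was 0.73. BIRC3, an inhibitor of apoptosis induced by NF-kB, had 8.97 RPKM in the parent, 30.8 RPKM in subclone 1 and 39.2 RPKM in subclone 2, 4.37-fold above the parent (3.76 to 5.09). NFKBIZ, a nuclear cofactor of NF-kB, went from 7.36 to 18.0 RPKM, 2.45-fold (1.99 to 3.02). LCN2 (lipocalin 2, an iron-siderophore binding protein of acute inflammation) had 37.4 RPKM in the parent, 269 RPKM in subclone 1 and 543 RPKM in subclone 2 and was 14.5-fold higher (12.2 to 17.3), the fourth largest gain in RPKM.

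The NF-kB consensus was searched in the promoters on both strands, each match covering 10 letters, and was present in 10.8% of all promoters in the table. Of the 10 chemokine ligands 8 had a promoter in the table and 5 of these had a match (CXCL1, CXCL2, CXCL3, CXCL5 and CCL20). In the NF-kB list 7 of 16 had one. That list holds NF-kB targets by its definition, and counts of matches in chosen lists give no result about subclone 2. Over the 443 higher genes with a promoter the share was 14.7%, against 12.9% of the 9235 background genes with one. The match farthest upstream is shown for 5 of the genes described above, with 10 bases on either side, the match in capitals and each sequence written along its gene (RefSeq, GRCh38.p14). CXCL1, CXCL5 and BIRC3 each hold matches at 2 positions of the window, and the others at 1.
CXCL1, 79 bases upstream, chr4:73869304-73869333: ctggaactccGGGAATTTCCctggcccggg
CXCL5, 91 bases upstream, chr4:73998749-73998778: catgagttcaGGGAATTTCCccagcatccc
CCL20, 79 bases upstream, chr2:227813753-227813782: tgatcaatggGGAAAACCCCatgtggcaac
BIRC3, 199 bases upstream, chr11:102317275-102317304: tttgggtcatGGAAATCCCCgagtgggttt
LCN2, 175 bases upstream, chr9:128149268-128149297: cagcactccgGGAATGTCCCtcactctccc
CXCL5 lies on the minus strand and the other genes on the plus strand, and CXCL1 and CXCL5 share the letters of the match. A match describes the letters only, and whether a factor was bound there was not measured.

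Interferon-stimulated genes and the class I pathway of antigen presentation also had mostly ratios above 0. Of 40 interferon-stimulated genes 30 were in the background, 27 above 0, with a median of 0.52. At least 2-fold higher were 6 (20.0%, against 5.33% of all background genes), and none was lower to that degree. XAF1, a proapoptotic factor, had 0.735 and 2.85 RPKM, 3.88-fold higher (2.03 to 8.01). GBP2, a guanylate-binding protein induced by interferon gamma, had 13.05 and 29.2 RPKM, 2.24-fold (1.85 to 2.72). SAMD9 went from 12.9 to 28.8 RPKM, 2.24-fold (1.99 to 2.53). ISG20, IFIT1 and USP18 were the other members past 2-fold, with 8 to 10 reads in the parent and 19 to 32 in subclone 2.

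Of 18 genes of class I presentation 16 were in the background, 14 above 0, with a median of 0.57. At least 2-fold higher were 3 (18.8%, against 5.33% of all background genes). PSMB9, a subunit of the immunoproteasome, had 4.25 RPKM in the parent and 11.5 RPKM in subclone 2, 2.71-fold (1.60 to 4.76). HLA-B went from 4.38 to 10.6 RPKM, 2.42-fold (1.58 to 3.80), and HLA-C from 17.3 to 39.5 RPKM, 2.28-fold (1.84 to 2.85). These loci are polymorphic and alike, so that reads may be lost or shared between them. B2M, the invariant light chain of class I molecules, had 479 RPKM in the parent, 759 RPKM in subclone 1 and 856 RPKM in subclone 2, 1.79-fold above the parent (1.70 to 1.89) and among the 10 largest gains in RPKM.

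Some secretory products of hepatocytes were higher in subclone 2. The level of ALB was 2.46 RPKM in the parent (1.59 to 3.63 on 25 reads), 49.5 RPKM in subclone 1 and 68.8 RPKM in subclone 2 (63.9 to 74.0 on 736 reads), a 28.0-fold difference (18.8 to 43.5). APOB, the structural protein of VLDL, had 0.2997, 1.23 and 4.17 RPKM in the same order, 13.9-fold above the parent (8.73 to 23.4). FGG, the fibrinogen gamma chain, had 1 read in the parent and 30 in subclone 2, a ratio of 28.5 with an interval from 4.74 to 1163. FGA, the alpha chain, had 1.16 and 4.63 RPKM, with an interval of the fold from 2.40 to 6.99, and FGB, the beta chain, had 1.66 RPKM in the parent, 14.5 RPKM in subclone 1 and 5.60 RPKM in subclone 2. All 3 chains of fibrinogen were thus past 2-fold over the parent.

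Of the 26 secretory genes 21 were listed and 15 were in the background. At least 2-fold higher were 6 (40.0%, against 5.33% of all background genes), and none was lower to that degree. The sixth was F2, prothrombin, from 0.773 to 2.62 RPKM on 7 and 25 reads. The median of the list was 1.73 for subclone 1 and 0.61 for subclone 2, the latter 0.31 with no filter on RPKM. APOB, FGG and F2 lay below 1 RPKM in the parent and passed the filter only through the subclones. HP (haptoglobin) and APOC3 had 0 reads in both libraries. Of the hepatocyte transcription factors 14 of 19 were in the background, 3 were past 2-fold and none lower, with a median of 0.45. NR1H4 (FXR, the bile acid receptor) had 1.61 RPKM in the parent, 10.8 RPKM in subclone 1 and 9.34 RPKM in subclone 2, 5.81-fold above the parent (2.85 to 13.4). NR5A2 (LRH-1) was 4.21-fold higher (2.33 to 8.14) at 0.617 and 2.60 RPKM. FOXA1, a pioneer factor of endoderm, had 7.63, 8.96 and 21.7 RPKM in the parent, subclone 1 and subclone 2, and was 2.85-fold above the parent (2.28 to 3.58).

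Acute-phase proteins, which the liver makes under IL-6 and NF-kB, overlapped this list through fibrinogen. Of 17 genes 10 were in the background, 7 at least 2-fold higher (70.0%, against 5.33% of all background genes) and 1 lower. Of the higher members, SAA1, C3, CFB and FGG lay below 1 RPKM in the parent and passed the filter only through the subclones. The median log2 ratio was 2.34 for subclone 1 and 1.80 for subclone 2. The latter was 1.57 with SAA1 set at its bound. C3, the central component of complement, had 0.917 RPKM in the parent (21 reads), 8.80 RPKM in subclone 1 and 11.1 RPKM in subclone 2 (267 reads), 12.1-fold above the parent (7.74 to 19.8). CFB (complement factor B) had 0.926 and 5.44 RPKM, 5.87-fold (3.08 to 12.3). SAA1 (serum amyloid A) had no reads in the parent and 8 in either subclone. It was at least 2.53-fold higher in subclone 2, but near-identical copies of the gene may have contributed reads. The lower member, HAMP (hepcidin), had 3 and 1 reads.

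Complement and coagulation genes share C3, CFB and F2 with the lists above. C3, CFB and F2 lay below 1 RPKM in the parent and passed the filter only through the subclones. Of 41 genes 21 were in the background, 11 at least 2-fold higher (52.4%, against 5.33% of all background genes) and none lower. The median was 1.03, or 0.83 with no filter on RPKM. F5, coagulation factor V, had 4.34 RPKM in the parent and 13.004 RPKM in subclone 2, 2.99-fold higher (2.53 to 3.56). C4BPB, the beta chain of the C4b-binding protein, and C2 had log2 ratios of 1.59 and 1.32. Of the drug-metabolising enzymes 15 of 38 were in the background, 5 higher (33.3%) and 1 lower (6.7%, against 2.16% of all background genes), with a median of 0.23. UGT1A1, which conjugates bilirubin, had 7.84 RPKM in the parent, 23.3 RPKM in subclone 1 and 31.0 RPKM in subclone 2, 3.95-fold above the parent (3.10 to 5.08), and UGT1A6 had 4.91 and 12.7 RPKM. The members of the UGT1A locus share exons, so that these values are not independent. CYP2B6 had 5 and 46 reads and the neighboring pseudogene CYP2B7P1 had 1 and 58, and reads may have been split between the pair.

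Several junction genes of epithelia were higher in subclone 2. CLDN1, claudin 1 of tight junctions, had 0.774 RPKM in the parent (0.400 to 1.35), 5.84 RPKM in subclone 1 and 12.7 RPKM in subclone 2 (11.02 to 14.5), 16.4-fold above the parent (9.18 to 32.2). CDH1 (E-cadherin) had 2.08, 8.97 and 12.3 RPKM and was 5.91-fold higher (4.30 to 8.29). CGN (cingulin) had 5.73, 15.9 and 25.5 RPKM, 4.45-fold (3.69 to 5.42). CLDN7 and TJP3 were 4.68-fold (2.55 to 9.26) and 6.46-fold (2.51 to 21.2) higher, from 13 and 5 reads in the parent. CLDN2, a claudin of leaky epithelia, had the opposite direction, with 7.11 RPKM in the parent, 17.3 RPKM in subclone 1 and 2.34 RPKM in subclone 2, 3.04-fold below the parent (2.05 to 4.60).

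Of 33 junction genes 19 were in the background, 7 higher (36.8%, against 5.33% of all background genes) and 1 lower (5.3%, against 2.16%). The median was 0.80, or 0.41 over members with a mean of at least 5 RPKM. In the list of epithelial and mesenchymal markers 17 of 23 genes were in the background, 4 higher and none lower, with a median of 0.16. The 4 were CLDN1, CDH1, CLDN7 and occludin, listed as LOC100506658, from 0.898 to 2.07 RPKM. The mesenchymal markers VIM and CDH2 had 4.45 and 43.9 RPKM in the parent and 5.12 and 49.0 RPKM in subclone 2, and the transcription factor ZEB1 had a log2 ratio of -0.55. Keratins had 8 of 20 genes in the background with a median of 0.31, and only KRT7, a keratin of bile ducts, was past 2-fold, from 14.4 to 6.04 RPKM, 2.38-fold lower (1.69 to 3.39).

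All 7 galectins listed, lectins that bind beta-galactosides on glycoproteins, were in the background and had ratios above 0, with a median of 0.56. LGALS4, a galectin of the gut epithelium, had 43.1 RPKM in the parent (250 reads), 138 RPKM in subclone 1 and 262 RPKM in subclone 2 (1601 reads), 6.08-fold above the parent (5.32 to 6.98). LGALS2 had 0 reads in the parent and 14 in subclone 2, at least 4.43-fold higher. LGALS9 went from 4.25 to 10.1 RPKM, 2.39-fold (1.60 to 3.64).

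Matrix genes differed in both directions. Of 32 collagen chains 9 were in the background with a median of 0.10, none higher and 2 lower. COL3A1, of fibrillar collagen III, had 4.42 RPKM in the parent, 2.21 RPKM in subclone 1 and 0.463 RPKM in subclone 2, 9.56-fold below the parent (5.26 to 19.1). COL6A3, of microfibrillar collagen VI, had 12.99, 6.67 and 4.45 RPKM, 2.92-fold lower (2.499 to 3.42), while the partner chains COL6A1 and COL6A2 had log2 ratios of 0.35 and 0.52. Both lower chains lie on chromosome 2. Of 11 laminin genes 8 were in the background with a median of 0.47, and LAMB1, the beta 1 chain, went from 34.4 to 78.6 RPKM, 2.28-fold (2.11 to 2.47).

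Proteoglycans and matricellular proteins had 17 of 32 genes in the background, with a median of 0.31, or 0.0 with no filter on RPKM. Of these 17, 3 were higher (17.6%, against 5.33% of all background genes) and 4 lower (23.5%, against 2.16%). VCAN (versican) had 15.5 RPKM in the parent, 1.03 RPKM in subclone 1 and 3.17 RPKM in subclone 2, 4.88-fold below the parent (4.16 to 5.75). SRGN (serglycin, of secretory granules) had 40.2 and 11.3 RPKM and was 3.54-fold lower (2.69 to 4.72). SPP1 (osteopontin, an integrin ligand) had 603 RPKM in the parent, 390 RPKM in subclone 1 and 199 RPKM in subclone 2, 3.03-fold below the parent (2.86 to 3.21). GPC1, a glypican on chromosome 2, was 2.64-fold lower (2.39 to 2.93). DCN (decorin) and HSPG2 (perlecan) were 3.56-fold (1.60 to 8.99) and 2.40-fold (2.11 to 2.72) higher. LUM (lumican) had 10.1 RPKM in the parent and was 2.08-fold higher (1.46 to 2.99). DCN and LUM are also markers of fibroblasts, whose COL1A1 and COL1A2 had at most 1 read in subclone 2.

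Among 20 metalloproteinases and inhibitors 10 were in the background, with a median of 0.21 and 1 gene past 2-fold in each direction. MMP2, gelatinase A, had 12.7 RPKM in the parent (203 reads), 3.79 RPKM in subclone 1 and 0.775 RPKM in subclone 2 (13 reads), 16.4-fold below the parent (9.40 to 31.4). MMP24, a membrane-type metalloproteinase, had 25.8 RPKM in subclone 2, 2.58-fold above the parent (2.18 to 3.05). In plasminogen activation, 9 of 11 genes were in the background with a median of -0.06. PLAT (tissue plasminogen activator) went from 8.64 to 3.13 RPKM, 2.75-fold lower (1.95 to 3.94), and SERPINF2 (antiplasmin) from 4 to 19 reads.

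Growth factors and their receptors also divided. ERBB3, the kinase-impaired partner of ERBB2, had 5.80 RPKM in the parent, 17.6 RPKM in subclone 1 and 35.4 RPKM in subclone 2, 6.11-fold above the parent (5.14 to 7.30). Its ligand NRG1 (neuregulin 1) had 14.8, 7.34 and 3.88 RPKM, 3.82-fold below the parent (2.85 to 5.18). Receptor and ligand thus stood in opposite order over the 3 lines. Of the other EGF family members HBEGF was 2.56-fold higher (1.20 to 5.94) and TGFA, on chromosome 2, 2.19-fold lower (1.33 to 3.68). The median of the 10 members in the background was -0.32, and it was 0.24 over members with a mean of at least 5 RPKM, so that no direction is given for the family.

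Angiogenic and lymphangiogenic factors had 13 of 23 genes in the background, with a median of 0.42. Of these 13, 5 were higher (38.5%, against 5.33% of all background genes) and none lower. PDGFC, a platelet-derived growth factor, had 2 reads in the parent and 43 in subclone 2, 0.145 and 2.96 RPKM, a ratio of 20.4 with an interval from 5.32 to 174. PGF (placental growth factor) had 2 and 19 reads, a ratio of 9.02 with an interval from 2.18 to 79.9. PDGFC and PGF passed the filter only through the subclones. ANGPTL4, an inhibitor of lipoprotein lipase, went from 10.3 to 25.5 RPKM and KDR (VEGF receptor 2) from 1.36 to 3.08 RPKM, 2.26-fold (1.52 to 3.41). FIGF (VEGF-D) had 0 reads and FLT4 (VEGF receptor 3) 1 read in each of the 2 libraries, which leaves the lymphangiogenic receptor and this ligand at or under the detection limit.

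Of 31 cytokine receptors 23 were in the background, 3 higher and 1 lower, with a median of 0.34. IL22RA1 had 1.04 RPKM in the parent and 4.18 RPKM in subclone 2, with an interval of the fold from 2.21 to 7.76, and IL2RG and IL15RA, which can bind IL-15 together, were 2.96-fold (1.36 to 7.12) and 2.26-fold (1.38 to 3.80) higher. IL13RA2, the decoy receptor of IL-13, had 103, 47.1 and 39.1 RPKM in the parent, subclone 1 and subclone 2, 2.63-fold below the parent (2.27 to 3.06). TGF-beta and BMP genes had 24 of 29 members in the background with a median of -0.04, none higher and 3 lower. INHBB, the beta B subunit of activin and inhibin, had 17.4, 1.62 and 1.71 RPKM, 10.2-fold below the parent (6.77 to 15.9), BMP6 had 12.8, 3.56 and 2.86 RPKM, 4.49-fold lower (3.19 to 6.44), and INHBA had 14 and 3 reads. All 3 are secreted ligands of the family, whereas none of its receptors and intracellular members was past 2-fold.

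Wnt target and feedback genes were mostly lower in subclone 2. Of 20 genes 17 were listed and 13 in the background, 8 of them at least 2-fold lower (61.5%, against 2.16% of all background genes) and none higher, with a median log2 ratio of -1.07 in subclone 2 and -0.83 in subclone 1 over the same parent library. SOST (sclerostin, an extracellular Wnt antagonist) had 16.8 RPKM in the parent (175 reads), 7.57 RPKM in subclone 1 and 0.365 RPKM in subclone 2 (4 reads), 46.1-fold below the parent (17.7 to 171). LGR5, the R-spondin receptor that marks intestinal stem cells and pericentral hepatocytes, had 8.66, 0.301 and 0.147 RPKM, from 56, 2 and 1 reads, a ratio of 58.9 between the parent and subclone 2 with an interval from 10.2 to 2369. NKD1, a feedback inhibitor that binds Dishevelled, had 9.41, 0.4998 and 0.406 RPKM, 23.2-fold lower (9.63 to 72.7).

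AXIN2, TCF7 and TBX3 were also past 2-fold but lower by less. AXIN2, a scaffold of the beta-catenin destruction complex, had 29.05 RPKM in the parent, 14.4 RPKM in subclone 1 and 13.5 RPKM in subclone 2, 2.16-fold below the parent (1.86 to 2.503). TCF7, the nuclear partner of beta-catenin, had 18.0 and 8.47 RPKM, 2.12-fold lower (1.72 to 2.63), and TBX3 had 9.12 and 3.87 RPKM, 2.36-fold lower (1.82 to 3.07). Members not past 2-fold included DKK1, a secreted antagonist, with 63.1 and 73.8 RPKM, and GLUL, glutamine synthetase, with 29.9 and 29.3 RPKM. The letters CTTTGA, the core of TCF sites, were searched on both strands and occur in 13.1% of all promoters. Of the 6 list members with a promoter in the table only DKK1 had a match, and LGR5, NKD1 and AXIN2 had no promoter there.

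**Figure D3:**
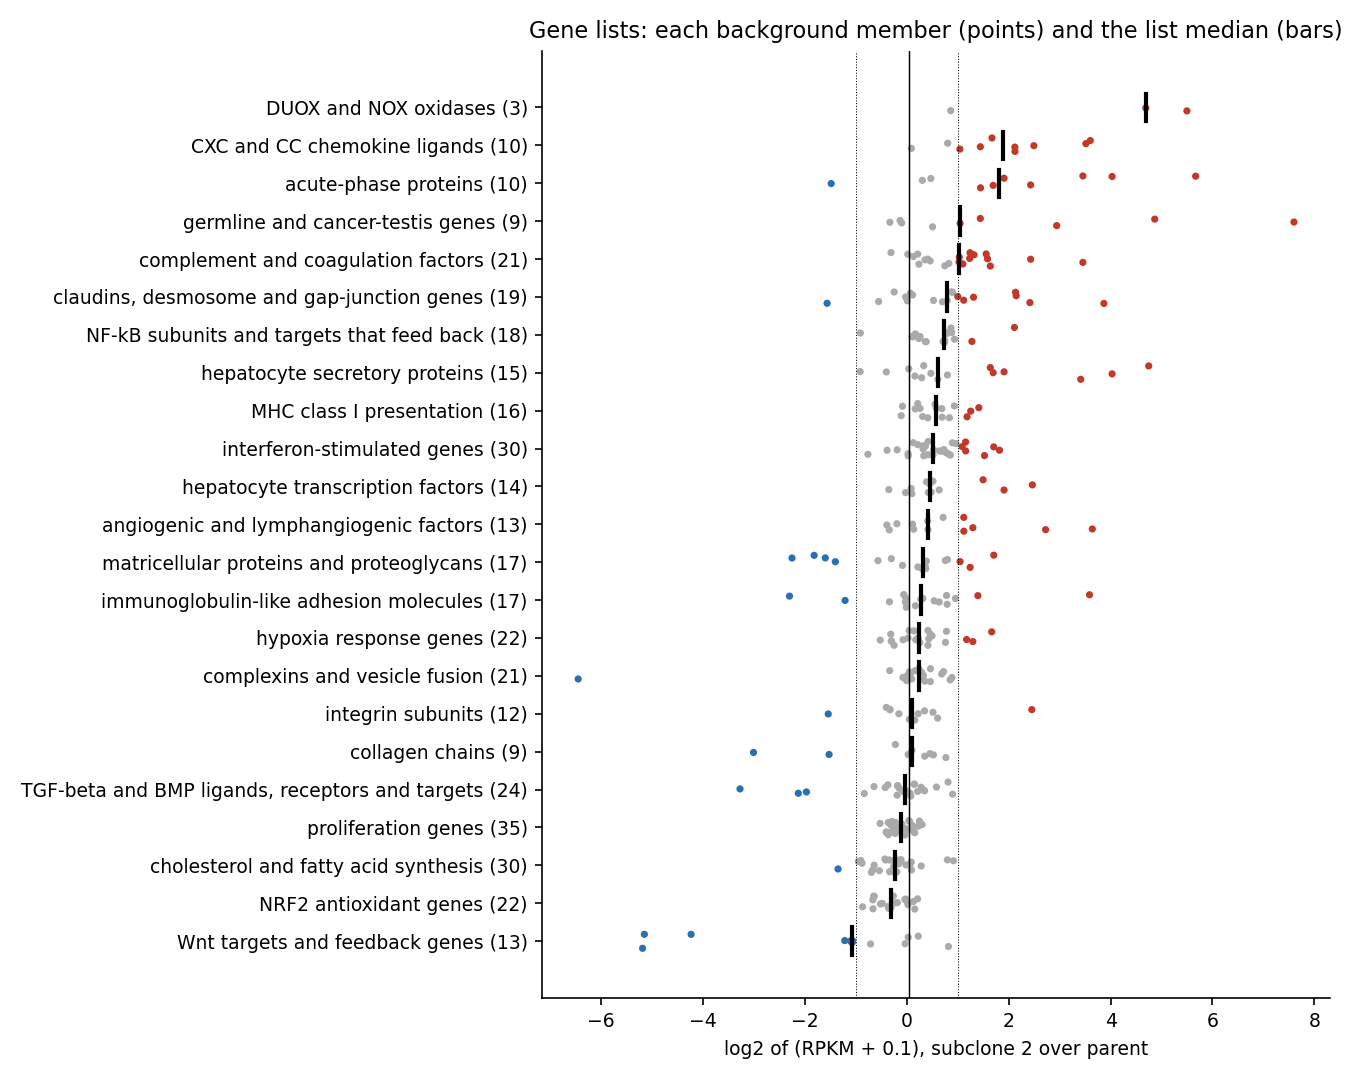
Log2 ratios of subclone 2 over the parent for the background members of 23 gene lists (points; the number of members in parentheses), with black bars for list medians, a solid line at the median of all background genes and dotted lines at 2-fold. Higher members (red) dominate the chemokine, acute-phase and complement lists, lower members (blue) the Wnt list, and the 35 proliferation genes lie within 2-fold.

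Several programs of growth and metabolism differed little. All 35 proliferation genes were in the background and none was past 2-fold, with a median of -0.12. MCM7, of the replicative helicase, had 185 RPKM in the parent and 140 RPKM in subclone 2, and TPX2, of the mitotic spindle, had 149 and 146 RPKM. All 22 NRF2 antioxidant genes were likewise within 2-fold, with a median of -0.31 and 17 of 22 below 0, while FTL, the ferritin light chain and 1 of the most abundant mRNAs, had a log2 ratio of 0.00. Cholesterol and fatty acid synthesis had 30 genes in the background with a median of -0.23 and 23 below 0, and SQLE (squalene epoxidase) alone was past 2-fold, from 60.1 to 23.6 RPKM, 2.55-fold lower (2.24 to 2.91).

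Of 22 cell-cycle inhibitors and p53 targets in the background 3 were higher and none lower, with a median of 0.25. CDKN1A (p21) had 20.0 RPKM in the parent, 39.2 RPKM in subclone 1 and 55.8 RPKM in subclone 2, 2.79-fold above the parent (2.38 to 3.28). BBC3 (PUMA, a proapoptotic BH3 protein) and CDKN1C (p57) were 2.85-fold (1.59 to 5.38) and 2.20-fold (1.71 to 2.84) higher. Hypoxia response genes had 22 of 24 members in the background, 3 higher and none lower, with a median of 0.24, among them CA9 (carbonic anhydrase 9) from 10.99 to 24.9 RPKM. Genes of the unfolded protein and ATF4 response had a median of 0.11 over 24 members, with ATF3 and DDIT4 higher and PHGDH lower, at log2 ratios of 1.62, 1.11 and -1.15.

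In absolute terms the largest differences lay in abundant mRNAs. AGR2, a disulfide isomerase of mucus-secreting cells, gained most, from 578 RPKM in the parent to 1355 RPKM in subclone 2 with 947 RPKM in subclone 1, 2.35-fold (2.24 to 2.46). S100A10, S100A4, S100A6 and S100A11, small calcium-binding proteins, were among the 10 largest gains at 1.104-fold to 1.35-fold, and none of the 10 S100 genes in the background was past 2-fold. BCYRN1, a brain cytoplasmic RNA with many related repeats in the genome, lost most, from 1285 to 434 RPKM, with 613 RPKM in subclone 1. FN1 (fibronectin) had 1625 RPKM in the parent, 1786 RPKM in subclone 1 and 1034 RPKM in subclone 2, 1.57-fold below the parent (1.55 to 1.59). CAV1 and CAV2, the caveolins, had 2449 and 2838 RPKM in the parent and 1809 and 2306 RPKM in subclone 2. BCYRN1, FN1, PTMA and TMSB10 of the 10 largest losses lie on chromosome 2. The other genes of these groups were MTRNR2L2 and MDK (midkine, a heparin-binding growth factor) among the gains, at 1.30-fold and 1.28-fold, and HSPA8, TXN and EEF1A1 among the losses, each between 1.21-fold and 1.39-fold lower.

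Imprinted genes had 11 of 26 members in the background, 2 higher and 1 lower, with a median of 0.48. H19, a maternally expressed long non-coding RNA, had 142 RPKM in the parent, 832 RPKM in subclone 1 and 778 RPKM in subclone 2, 5.47-fold above the parent (5.18 to 5.79). CD81, a tetraspanin encoded near H19 on chromosome 11, had the lowest ratio of all background genes, with 18.5 RPKM in the parent (124 reads) and no reads in either subclone, at least 43.5-fold lower in subclone 2. Of the other genes among the 15 lowest ratios, SOX18, a transcription factor of lymphatic and blood endothelium, had 45 reads in the parent and 1 in subclone 2, and PRKCB, protein kinase C beta, had 134 and 2, with 16 and 83 reads in subclone 1. HIST1H2AM, a replication histone with near-identical copies, had 6 and 0 reads, at least 2.11-fold lower. Among the 15 highest ratios, SMEK3P, a copy of the SMEK phosphatase subunit genes, had 0 and 37 reads, at least 11.7-fold higher, with 30 reads in subclone 1.

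Of the liver progenitor and cancer stem cell markers 11 of 23 were in the background, 1 of them past 2-fold, with a median of 0.32. ANPEP (CD13) was that member, with 16.5 RPKM in the parent, 85.6 RPKM in subclone 1 and 50.6 RPKM in subclone 2, 3.07-fold above the parent (2.68 to 3.53). A panel of 20 genes used for real-time PCR had 16 members in the background, 4 higher and 1 lower with a median of 0.57. The higher members were VCAM1, ITGA1, ANGPTL4 and HBEGF, and the lower member was IL13RA2. SPARC, which the study relates to lung metastasis together with VCAM1 and ANGPTL4, was not among the background members past 2-fold. The panel holds candidates for metastatic tropism that the study took from the literature and could detect in its subclones. Only primer targets matched by gene name are in it, so that it is not the whole set the study detected. Of 11 metallothioneins only MT1X and MT2A were in the background, at log2 ratios of 1.12 and 0.24, MT1X with 6 reads in the parent.

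The ratios were not even along the genome. On chromosome 2 the median log2 ratio of 739 background genes was -0.31, against 0.04 over all background genes, and 568 of them (76.9%) were below 0 against 46.5% of all. Chromosome 2 held 42 of the 246 lower genes (17.1%) and 6.5% of the background. At least 2-fold higher were 24 of its genes (3.25%), CCL20 among them. In subclone 1 the median of the 739 genes was -0.13. Chromosome 3 had a median of -0.14, and -0.22 in subclone 1. Chromosome 7 had the highest median, 0.24 in subclone 2 and 0.18 in subclone 1, and 7.63% of its genes were at least 2-fold higher. The other chromosomes had medians between -0.07 and 0.12.

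**Figure D4:**
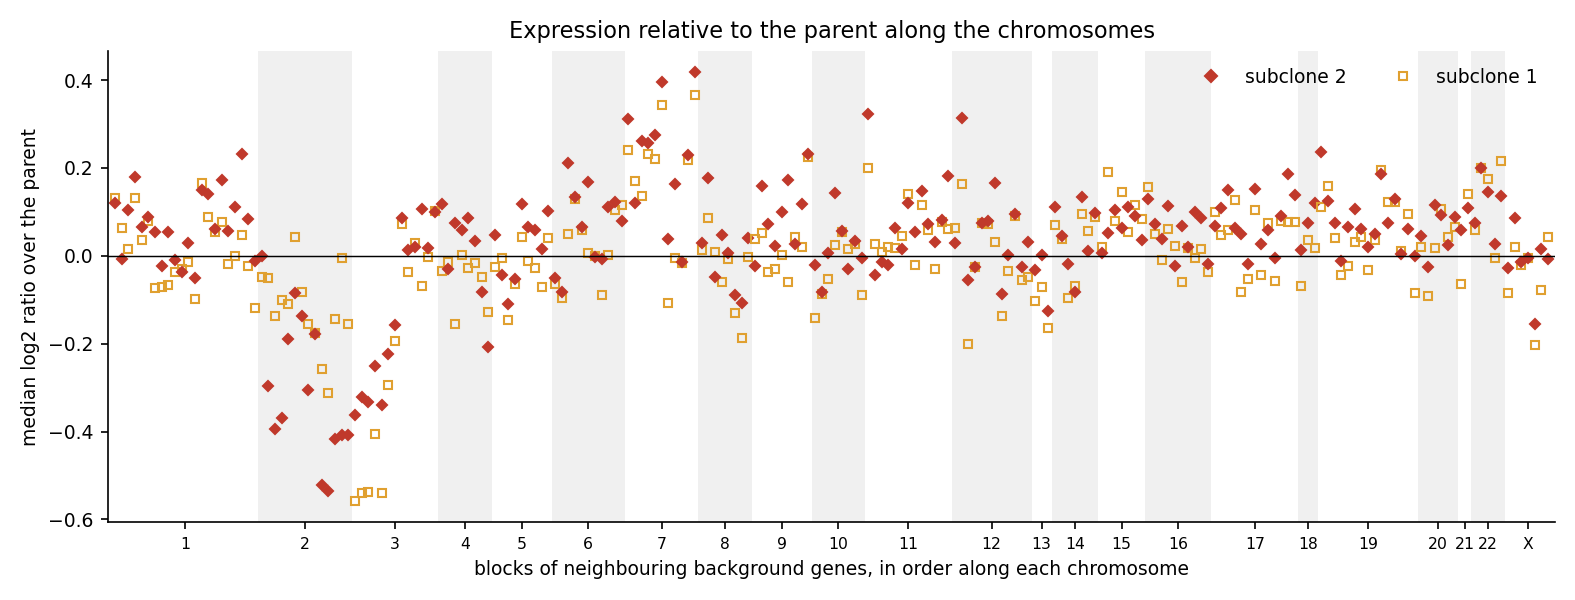
Median log2 ratio over the parent in consecutive blocks of about 50 background genes, ordered along each chromosome (horizontal axis), for subclone 2 (red diamonds) and subclone 1 (open orange squares). Chromosome 2 falls to -0.53 in subclone 2 and lies lower there than in subclone 1, while the first blocks of chromosome 3 are lower in subclone 1, and chromosome 7 is raised in both.

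In blocks of about 50 neighboring genes, 12 of 216 blocks had a median of -0.30 or lower, 8 of them on chromosome 2 and 4 on chromosome 3. The first of the 14 blocks of chromosome 2 had a median of 0.00, and the lowest, which ends with SLC39A10, had -0.53 in subclone 2 and -0.31 in subclone 1. On chromosome 3 the first 5 blocks had medians of -0.36 to -0.25 in subclone 2, against -0.56 to -0.40 for subclone 1, and from the eighth block onward they were between 0.01 and 0.11 in subclone 2. The 2 chromosomes thus differed in which subclone was lower. The longest lower run, 33 neighboring genes from WDR75 to SGOL2 on chromosome 2, had a median of -0.64, with 31 below 0. It holds MARS2, a mitochondrial methionyl-tRNA synthetase, at 7.76 and 2.05 RPKM, and the paired chaperonin genes HSPD1 and HSPE1 at log2 ratios of -0.75 and -0.42.

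A run here joins windows of 10 neighboring background genes with at most 1 on the other side of 0 and a median beyond 0.58 in size. The 12 lower runs comprised 10 on chromosome 2, with 156 genes, and 2 on chromosome 3. The 20 higher runs were spread over more chromosomes, 4 of them on chromosome 7 with 72 genes. The longest, 27 genes from ZNF767 to PRKAG2 on chromosome 7, had a median of 0.64 and holds NOS3 and RARRES2 at log2 ratios of 1.72 and 1.29. Runs on other chromosomes surround genes described above. That from ALB to AREG on chromosome 4 (10 genes, median 0.92) holds ALB, AFP and the cluster of CXC chemokines, that from CTDSPL2 to PLDN on chromosome 15 (14 genes, median 0.74) holds DUOX2, DUOXA2 and B2M, and that from SLC25A23 to ARHGEF18 on chromosome 19 (11 genes, median 1.03) holds C3 and INSR, the insulin receptor, from 3.69 to 10.54 RPKM. On chromosome 21 a run from TMPRSS2 to SLC37A1 (10 genes, median 1.13) holds TFF1, a trefoil factor of mucosal repair, with 4 reads in the parent and 18 in subclone 2.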

How the data were processed

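RNA of 3 cultured lines was sequenced with 1 library each. The authors deposited RPKM per gene, with Entrez number and symbol, for genes above 0. The submitters' processing notes name the build hg19, and the aligner, counter, annotation and strand handling are not given in the sources used here. Genes absent from a file were given 0. Background genes had a mean of at least 1 RPKM over the 3 libraries. Log2 ratios used a pseudocount of 0.1 RPKM, which understates low genes, on RPKM without rescaling. Library totals were taken as the smallest at which small RNAs came out at whole reads (97.7% for the parent, 98.2% for subclone 1, 96.5% for subclone 2), and reads were tested on simulated data. The genes with whole reads held 95.7% of the total in each library. Intervals (95%) and the floor of 3 reads came from these reads. Chromosomes and promoters came from RefSeq (GRCh38.p14), which held 99.4% of the gene numbers, and gene places from GENCODE (GRCh38). Named genes were the 5 markers, the 15 highest and 15 lowest ratios (the small RNAs among them only counted), the 10 largest gains and losses in RPKM, up to 6 members past 2-fold of each list (otherwise its 2 most abundant) and members of runs. CCL26, IL8, HAMP, HP, APOC3, SSX1, MAGEA3, TDRKH, DDX4, PIWIL2, CPLX1, DKK1, GLUL, VIM, CDH2, ZEB1, COL6A1, COL6A2, DUOX1, NOX1, CCR1, CCR6, FIGF, FLT4 and the genes of the closing observations were chosen after their values were seen. The markers and lists were chosen with earlier results of these data known. Alternatives were other pseudocounts, rescalings, filters, thresholds and protein-coding genes only. Python 3.11.15, numpy 2.4.6, pandas 2.3.3, scipy 1.17.1 and matplotlib 3.10.9 were used.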

Additional observations from a re-analysis of the deposited data

Results flagged for a closer look

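Of the background genes, 9 were past 2-fold of the parent in opposite directions in the 2 subclones, with subclone 1 and subclone 2 set against the same parent library. The differences were not tested, since each line has 1 library, and the log2 ratios given here are those of subclone 2 over the parent. CLDN2, the claudin described above, had -1.56, against 1.27 in subclone 1. ITGB3, the integrin beta 3 subunit, had -1.54 on 18, 58 and 5 reads in the parent and the 2 subclones. INHBA, the activin beta A subunit, had -1.97 on 14, 30 and 3 reads. MYL9, a regulatory light chain of smooth muscle myosin, had -1.33 on 8, 36 and 3 reads, with an interval of the fold of subclone 2 over the parent from 0.0609 to 1.48. CST1, a salivary cystatin, had -3.63 on 2, 7 and 0 reads, and no fold is given. In the opposite direction GPR110, an adhesion G protein-coupled receptor, had 1.38, on 25, 6 and 71 reads in the same order. C20orf114, a secreted protein of the airway epithelium, had 1.71 on 7, 2 and 26 reads. NAA11, a testis paralog of an N-terminal acetyltransferase, had 2.73 on 4, 0 and 32 reads. ACMSD, an enzyme of tryptophan catabolism that lies on chromosome 2, had 1.17 on 9, 4 and 22 reads.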

How the results depend on the processing

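The numbers of genes at least 2-fold higher and lower in subclone 2, 606 and 246, depended by construction on pseudocount, filter and threshold. They were 380 and 150 with a pseudocount of 1 RPKM, 1553 and 941 with no filter, 253 and 93 with a mean of at least 5 RPKM, and 1444 and 830 at 1.5-fold. They stayed within 1.5 times under a pseudocount of 0.01 RPKM (643 and 264), rescaling to the same sum (592 and 257), to the upper quartile (571 and 265), to ACTB (596 and 251) or to GAPDH (681 and 215), centring on the median (571 and 266) and for genes whose interval lay beyond 1 (536 and 195). Protein-coding genes alone, chosen after seeing the data, gave 559 and 214. Among higher and lower genes the share that was higher was 71.1%, and 62.3% to 76.0% under the alternatives. With a pseudocount of 1 RPKM the log2 ratio of ITGA1 went from 2.46 to 1.82 and that of CPLX2 from -6.45 to -3.70. Of 429 medians of lists and chromosomes under alternatives 416 stayed within the typical counting interval of their members. That interval belongs to a single member and is a lenient bound for a median. The rescalings and the centring moved the median of all background genes by only -0.04 to 0.06. The count of 416 is therefore no measure of how stable the medians are. Of the 429 medians 10 changed sign, and 9 of these had a value under 0.3 in size to begin with. Examples are the integrins (0.11 to -0.05 with a mean of at least 5 RPKM) and collagens (0.10 to -0.23 with no filter). The tenth was that of the EGF receptors and ligands, from -0.32 to 0.24 with a mean of at least 5 RPKM. No paired analysis was possible because the lines were sequenced with 1 library apiece, which also left none to omit. Depth limits genes with few reads most: 4 reads of MAGEA11 in the parent leave its fold between 0.954 and 12.998.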

Other observations

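The following 5 genes outside the lists were chosen for high ratios after their values were seen. PIGR, the receptor that carries IgA across epithelia, had 0.311 RPKM in the parent, 3.69 RPKM in subclone 1 and 6.16 RPKM in subclone 2 (6, 73 and 125 reads), with an interval of the fold of subclone 2 over the parent from 8.84 to 55.0. SLPI, a protease inhibitor of mucus, had 2.24, 13.4 and 29.4 RPKM (5.79 to 36.8). TMPRSS2, a membrane serine protease of epithelia, had 0.548, 2.27 and 10.4 RPKM (7.14 to 71.4). TM4SF4, a tetraspan protein of liver and gut, had 1.92, 46.1 and 39.5 RPKM (12.1 to 38.1). PPP1R14D, an inhibitor of protein phosphatase 1 found in gut, had 2, 17 and 50 reads, and the interval of its fold ran from 6.24 to 202. In all of these genes but TM4SF4 subclone 1 lay between the parent and subclone 2.

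The next 4 genes lay below the background. IL7R, the receptor of IL-7, had 20 reads in the parent and 0 in both subclones, at least 7.02-fold lower in subclone 2. CXCL6, a further ELR chemokine beside CXCL5, had 0 reads in the parent and 13 in subclone 2, at least 4.12-fold higher. HGF, the ligand of MET, had 0 and 10 reads, at least 3.17-fold higher. TNC, the matrix protein tenascin C, had 27 reads in the parent and 1 in either subclone, a ratio of 28.4 with an interval from 4.68 to 1164. TXNIP, a background gene on chromosome 1 that encodes the thioredoxin-interacting protein, had 1.96 RPKM in the parent, 8.52 RPKM in subclone 1 and 15.3 RPKM in subclone 2, with an interval of the fold from 5.17 to 12.2.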
